A study of Mus musculus with 12 samples.

Results

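Cd47, Pvr, Nectin2, Cd276 and Nt5e encode ligands and an enzyme on the surface of tumour cells that hold back immune cells by routes other than PD-L1. These 5 genes were chosen by symbol, and their rows were sought in an expression table of 12584 genes. A row was held for 4 of them. Nt5e, which encodes the ectoenzyme CD73, is not analysed here. The data are RNA sequencing libraries of CT26, a mouse colon carcinoma cell line, after 24 h of treatment, with 3 libraries in each of 4 groups. The groups are NP-D@MP, NP-D@M and NP@M, and cells given PBS, the vehicle. The study's title describes a CDK-directed nanodrug wrapped in engineered membrane of cancer cells and used with antibody to PD-L1, but the labels do not spell out NP, D, M or MP. NP-D@MP and NP-D@M are called the libraries with D here, and NP@M and PBS those without D. Whether the 3 libraries of each group were grown and treated apart is not stated in the labels. The p-values therefore speak of the variation among these libraries, and that variation may be technical only.

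CD47 binds SIRP-alpha on macrophages and restrains phagocytosis, a signal known as "don't eat me". PVR (CD155) and nectin-2 (CD112) are cell adhesion proteins of the nectin group that bind a shared set of receptors on T cells and natural killer cells, some inhibitory, such as TIGIT, CD96 and PVRIG, and one activating, CD226. CD276 (B7-H3) belongs to the B7 family, as PD-L1 does, and its receptor is not settled. CD73 makes adenosine from AMP outside the cell, and adenosine dampens T cells through its receptors. Many colon tumours and tumour cell lines carry these proteins, and antibodies to several of them are under study.

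In the coordinates of the table, which are those of GRCm38, Cd47 (ENSMUSG00000055447) lies on chromosome 16 from 49800533 to 49915010 on the plus strand. Pvr (ENSMUSG00000040511) lies on chromosome 7 from 19903578 to 19921160 and Nectin2 (ENSMUSG00000062300) from 19716644 to 19750483. Both are on the minus strand, 153 kb apart, and the 4 genes of the table between them were all too low to test. Cd276 (ENSMUSG00000035914) lies on chromosome 9 from 58524298 to 58555437 on the minus strand. The RefSeq table of GRCm38.p6 held the 250 bases before the start of transcription for Cd47, Nectin2 and Cd276. Those of Cd47 and Nectin2 are shown up to the first annotated exon base within the window. These are the genes whose log2 change with D was the smallest and the largest of the 4 in the values as deposited. The stretches are chr16:49855404-49855632 on the plus strand and chr7:19749574-19749823 on the minus strand. Both lie inside the gene spans given above, so the start used here is not the outermost annotated one. Capitals mark GC boxes, searched as the letters GGGCGG and, for the other strand, CCGCCC.
Cd47: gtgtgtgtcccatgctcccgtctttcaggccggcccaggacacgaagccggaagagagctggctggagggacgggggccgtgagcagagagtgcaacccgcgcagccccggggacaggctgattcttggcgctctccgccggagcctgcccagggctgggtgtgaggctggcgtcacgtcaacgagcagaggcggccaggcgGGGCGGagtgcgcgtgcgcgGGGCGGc
Nectin2: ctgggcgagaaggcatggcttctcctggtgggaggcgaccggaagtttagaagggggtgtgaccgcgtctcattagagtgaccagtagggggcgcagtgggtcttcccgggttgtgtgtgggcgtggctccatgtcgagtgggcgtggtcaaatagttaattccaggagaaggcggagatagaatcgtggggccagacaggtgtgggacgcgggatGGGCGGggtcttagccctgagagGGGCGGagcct
Each held 2 GC boxes, at 48 to 43 and 28 to 23 bases before the start in Cd47 and at 34 to 29 and 11 to 6 bases before it in Nectin2. The Cd276 window had 3, and all of its bases lie in an exon of another annotated transcript, so it is not printed. Windows with a GC box made up 32.7% of the 32851 windows in the table. None of the 3 windows held the TATA box, searched as TATAAA and, for the other strand, TTTATA, which was present in 12.4% of all windows. The CCAAT box, searched as CCAAT and, for the other strand, ATTGG, occurred 2 times in the Cd276 window and in neither of the others, against 33.8% of all windows. The GC content was 73.2% for Cd47, 62.0% for Nectin2 and 77.6% for Cd276, above the median of 52.4% over all windows. These matches describe the letters only.

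The unit of the table is FPKM, a read level per kilobase of gene and per mega-read (M reads) of library size. The FPKM values could be turned back into whole reads, and these summed to 12.8 to 14.9 M reads in the libraries with D and 13.9 to 15.7 M reads in those without D. The authors' divisor, however, was 7.13 to 8.40 M reads with D and 28.2 to 31.1 M reads without D. A single read on 1 kb of gene therefore counts as 0.119 to 0.140 FPKM with D and as 0.0322 to 0.0355 FPKM without D. A fall in FPKM with D is therefore a larger fall in the share of the reads in the table. Folds on both scales are given for each gene. Mitochondrial genes held 7.41 to 14.4% of the reads with D and 3.30 to 4.20% without D, and ribosomal protein genes held 14.1 to 16.3% with D and 5.87 to 6.68% without D. Whether these shares have a part in the results on the 4 genes was not tested. In bulk RNA, fewer cells of a type and less RNA per cell cannot be told apart.

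Markers of colon epithelium had rows for 3 of 10 genes, with Krt20 as the most abundant and without Epcam or Cdh1. They summed to 80.0 to 91.2 FPKM with NP-D@MP, 73.1 to 87.8 FPKM with NP-D@M, 15.1 to 16.4 FPKM with NP@M and 15.2 to 18.7 FPKM with PBS. Fibroblast and stromal markers had rows for 6 of 8 genes, led by Col1a2, and summed to 12.9 to 15.4 FPKM with NP-D@MP, 11.1 to 13.1 FPKM with NP-D@M, 70.6 to 73.1 FPKM with NP@M and 71.9 to 86.6 FPKM with PBS. Myeloid markers had rows for 4 of 8 genes and summed to 13.9 to 21.3 FPKM with NP-D@MP, 9.31 to 18.5 FPKM with NP-D@M, 2.67 to 3.25 FPKM with NP@M and 2.57 to 2.85 FPKM with PBS. Most of this sum was Cd68, a lysosomal protein, while Ptprc, which marks all leukocytes, stayed at or below 0.0677 FPKM. No marker of T and natural killer cells (0 of 7), B cells (0 of 3) or erythroid cells (0 of 3) had a row. Endothelial markers (2 of 4) summed to at most 0.615 FPKM. Of 10 retinal markers, looked up because the extraction protocol in the labels mentions retinas, only Sag had a row, at most at 0.589 FPKM. The part of these marker genes in the results on the 4 ligand genes was not tested.

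Cd47, the macrophage checkpoint ligand, was the most abundant of the 4 genes in every library and the one that fell least with D in FPKM fold. Its level was 16.3, 14.3 and 16.0 FPKM in the NP-D@MP libraries (replicates 10, 11 and 12) and 16.8, 15.4 and 13.8 FPKM in the NP-D@M libraries (replicates 7, 8 and 9). It was 23.5, 26.0 and 22.5 FPKM in the NP@M libraries (replicates 4, 5 and 6) and 22.7, 21.7 and 23.1 FPKM in the PBS libraries (replicates 1, 2 and 3). All 6 libraries with D thus lay below all 6 without D, and the groups within each set overlapped. Of all tested genes, 46.6% had NP-D@M below NP@M without overlap, and 48.3% had NP-D@MP below PBS. The share split as 6 against 6 libraries was not counted, here or for the genes below. With NP-D@M the level of Cd47 fell by 0.62 on the log2(FPKM + 1) scale against NP@M (SE 0.0975, adjusted p = 8.72e-05, limma with Benjamini-Hochberg adjustment over 10101 genes), to a mean 1.57-fold lower. With NP-D@MP it fell by 0.51 against PBS (limma adjusted p = 0.000421), to a mean 1.44-fold lower. In reads the distance was wider. Cd47 took 766, 681 and 718 reads with NP-D@MP and 886, 699 and 712 reads with NP-D@M, against 4527, 4831 and 4395 reads with NP@M and 4371, 4168 and 4083 reads with PBS. Per M reads in the table this was 53.8 ± 5.89 with NP-D@M against 300.3 ± 18.7 with NP@M, and 52.2 ± 3.75 with NP-D@MP against 279.6 ± 14.0 with PBS (SD, n = 3 each).

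Pvr, the ligand of TIGIT, CD96 and CD226, was close to Cd47 in level without D and well below it with D. It had 3.01, 3.10 and 3.21 FPKM in the NP-D@MP libraries and 3.74, 4.03 and 3.92 FPKM in the NP-D@M libraries. With NP@M it had 18.4, 18.7 and 17.2 FPKM, and with PBS 17.9, 18.6 and 17.7 FPKM. The 2 sets of 6 libraries were far apart, and NP-D@MP lay below NP-D@M without overlap. Against NP@M, the log2 change with NP-D@M was -1.96 (SE 0.0760, adjusted p = 5.19e-10, limma), which made the mean 4.64-fold lower. Against PBS, the change with NP-D@MP was -2.22 (adjusted p = 2.12e-10, limma), a mean 5.82-fold lower. The reads behind these levels were 138, 144 and 140 with NP-D@MP and 192, 179 and 197 with NP-D@M, against 3454, 3385 and 3266 with NP@M and 3362, 3500 and 3058 with PBS. As a share of the reads in the table, Pvr was 16.6-fold lower with NP-D@M than with NP@M (95% counting interval 15.2 to 18.1) and 21.6-fold lower with NP-D@MP than with PBS (19.6 to 23.9). Such intervals cover counting error only.

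Nectin2, the partner of PVRIG and CD226, was close to the limit of detection with D. Its level was 0.0383, 0 and 0.401 FPKM in the NP-D@MP libraries and 0.239, 0.395 and 0.244 FPKM in the NP-D@M libraries. In the NP@M libraries it was 5.93, 5.81 and 6.45 FPKM, and in the PBS libraries 6.99, 7.36 and 6.20 FPKM. No library with D reached 1 FPKM and none without D was below 5 FPKM. Nectin2 thus passed the filter of 1 FPKM in 3 libraries only through NP@M and PBS, and its calls give no support of their own. The log2 change was -2.45 for NP-D@M against NP@M (SE 0.128, adjusted p = 5.90e-09, limma) and -2.79 for NP-D@MP against PBS (adjusted p = 1.94e-09, limma), the largest of the 4 genes in both comparisons on this scale as deposited. Scaled to table reads, the log2 change of Pvr was the larger, at -3.52 in NP-D@M against NP@M, beside -3.44 for Nectin2. These values rest on 1, 0 and 10 reads with NP-D@MP and 7, 10 and 7 reads with NP-D@M, against 636, 601 and 700 reads with NP@M and 750, 789 and 610 reads with PBS. A count of 0 in a library allows up to 3 reads. From the summed reads and the authors' library sizes, Nectin2 was 21.1-fold lower with NP-D@M than with NP@M (95% counting interval 14.1 to 33.0) and 48.4-fold lower with NP-D@MP than with PBS (27.0 to 97.2). Without replicate 12, which holds 10 of the 11 reads of NP-D@MP, 1 read was left and the fold against PBS was 361.5 (64.8 to 14285). As a share of the reads in the table, Nectin2 was 75.2-fold lower with NP-D@M (50.4 to 117.7) and 179.5-fold lower with NP-D@MP (100.1 to 360.1). Exons of the antisense gene Gm20512 overlap 3.86% of the exonic bases of Nectin2, and no source used here gives the strand setting of the counting, so reads in that stretch cannot be told apart from those of the antisense partner.

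Cd276, the B7 family member, was the least abundant gene of the 4 without D. It stood at 0.0366, 0 and 0.192 FPKM with NP-D@MP and at 0.163, 0 and 0 FPKM with NP-D@M. The level was 1.50, 1.63 and 1.58 FPKM with NP@M and 1.58, 1.67 and 1.71 FPKM with PBS. All 6 libraries with D were below all 6 without D. Cd276 passed the filter of 1 FPKM in 3 libraries only through NP@M and PBS, so its calls give no support of their own. The log2 change was -1.29 for NP-D@M against NP@M (SE 0.0956, adjusted p = 1.21e-07, limma) and -1.31 for NP-D@MP against PBS (adjusted p = 1.09e-07, limma). The reads were 1, 0 and 5 with NP-D@MP and 5, 0 and 0 with NP-D@M, against 168, 177 and 180 with NP@M and 178, 187 and 176 with PBS. The pseudocount of 1 FPKM is as large as most of the level of Cd276, so its log2 change understates the fold. By summed reads and the authors' library sizes Cd276 was 27.4-fold lower with NP-D@M than with NP@M (95% counting interval 11.7 to 84.8) and 22.4-fold lower with NP-D@MP than with PBS (10.2 to 61.2). Single libraries decide these folds. Without replicate 7, which holds all 5 reads of NP-D@M, Cd276 was at least 29.6-fold lower, with the floor of 3 reads set over both libraries left. Without replicate 12, which holds 5 of the 6 reads of NP-D@MP, the fold against PBS was 91.0 (16.3 to 3601), and without replicate 8, 9, 10 or 11 the folds were 14.7 to 19.1. As a share of the reads in the table Cd276 was 97.8-fold lower with NP-D@M (41.7 to 302.6) and 82.8-fold lower with NP-D@MP (37.8 to 226.7). The intervals with all libraries overlap those of Nectin2, so the order of the 2 genes by fold is not settled at this depth. Of the 50-base words in the Cd276 transcripts, 9.92% also occur in transcripts of other genes, mostly Gm10657, which overlaps it on the other strand. The shares were 2.61% for Nectin2 and 0.722% for Cd47, and 0% for Pvr.

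**Figure D1:**
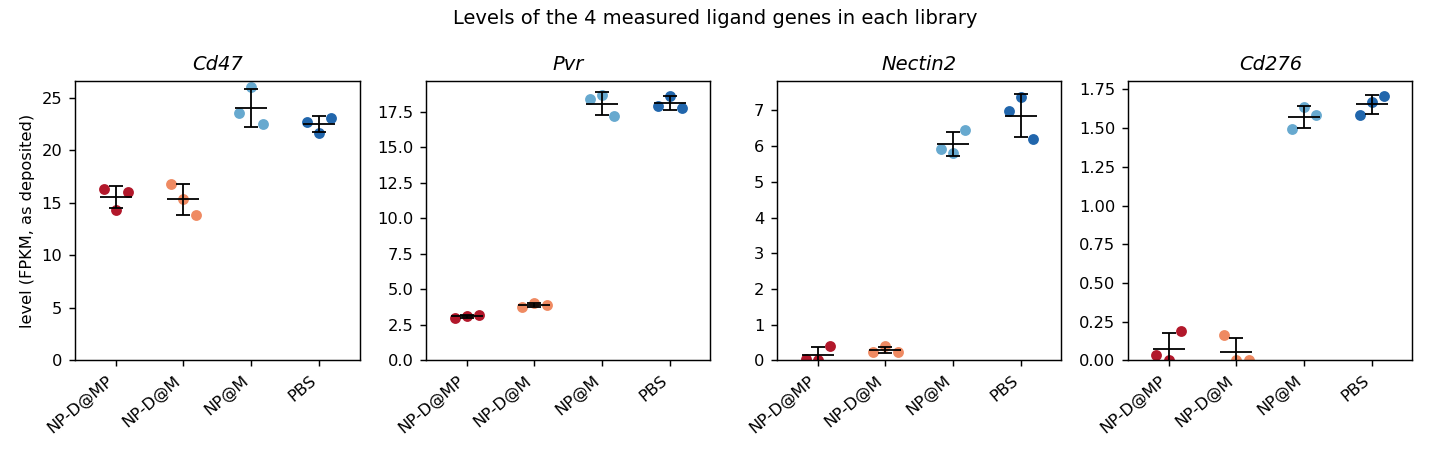
Level of Cd47, Pvr, Nectin2 and Cd276 in each library, in FPKM as deposited on a linear axis from 0 with its own range per gene. Each point is a library of the NP-D@MP, NP-D@M, NP@M or PBS group, with the group mean and SD (n = 3) as lines, and the points of the groups with D lie below all points of NP@M and PBS for each gene.

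NP-D@M against NP@M asks what D in the particle adds to the same coat, and here 4 of the 4 genes fell and none rose. Of all tested genes 47.7% were called lower in this comparison and 89.5% in either direction. The groups of 46.6% of all tested genes lay apart without overlap with NP-D@M below NP@M, as those of the 4 genes did. In NP-D@MP against PBS, the complete nanodrug against the vehicle, 4 of the 4 genes fell as well, where 47.3% of all tested genes were called lower, 90.5% were called in either direction and 48.3% lay below PBS without overlap. Being lower with D was thus common among all genes. Nectin2 and Cd276 also passed the filter of 1 FPKM in 3 libraries only through NP@M and PBS, so that they had to differ, and the count of 4 gives no support of its own. Ordered from the lowest change upward among all tested genes in NP-D@M against NP@M, Nectin2 lay at percentile 2.21, Pvr at 6.42, Cd276 at 19.7 and Cd47 at 40.6. The place of Cd276 is limited by the pseudocount, since a level of 0 in all NP-D@M libraries would have given it a log2 change of -1.36 and no less. With voom on reads and the authors' library sizes its log2 change was -5.34, beyond the -4.34 of Nectin2 and the -2.21 of Pvr.

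Change with D varied with gene length over the whole table, and the 4 genes are of a middle length, from 3494 bases for Nectin2 to 6276 for Cd47. Among the 4354 tested genes of 3 to 7 kb the median log2 change was -0.53 in NP-D@M against NP@M, and 55.3% were called lower. Among the 3680 shorter genes the median was 0.98 and 28.8% were called lower. In NP-D@MP against PBS the medians were -0.50 for genes of 3 to 7 kb and 1.08 for shorter genes. The part of length in the changes of the 4 genes was not tested.

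The split of all calls depended on the library size. With the values as deposited, 4222 genes were higher and 4815 lower in NP-D@M against NP@M. After scaling to the table's reads, 1766 were higher and 7124 lower, and the median log2 change of all genes was -1.44 in place of -0.19. In NP-D@MP against PBS the split was 4367 higher and 4777 lower as deposited, and 1772 higher and 7148 lower after that scaling. All 4 ligand genes were called lower in both comparisons under both scalings. Scaled to table reads, Cd47 was 5.58-fold lower with NP-D@M than with NP@M and 5.36-fold lower with NP-D@MP than with PBS, more than 1.5 times its change as deposited.

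**Figure D2:**
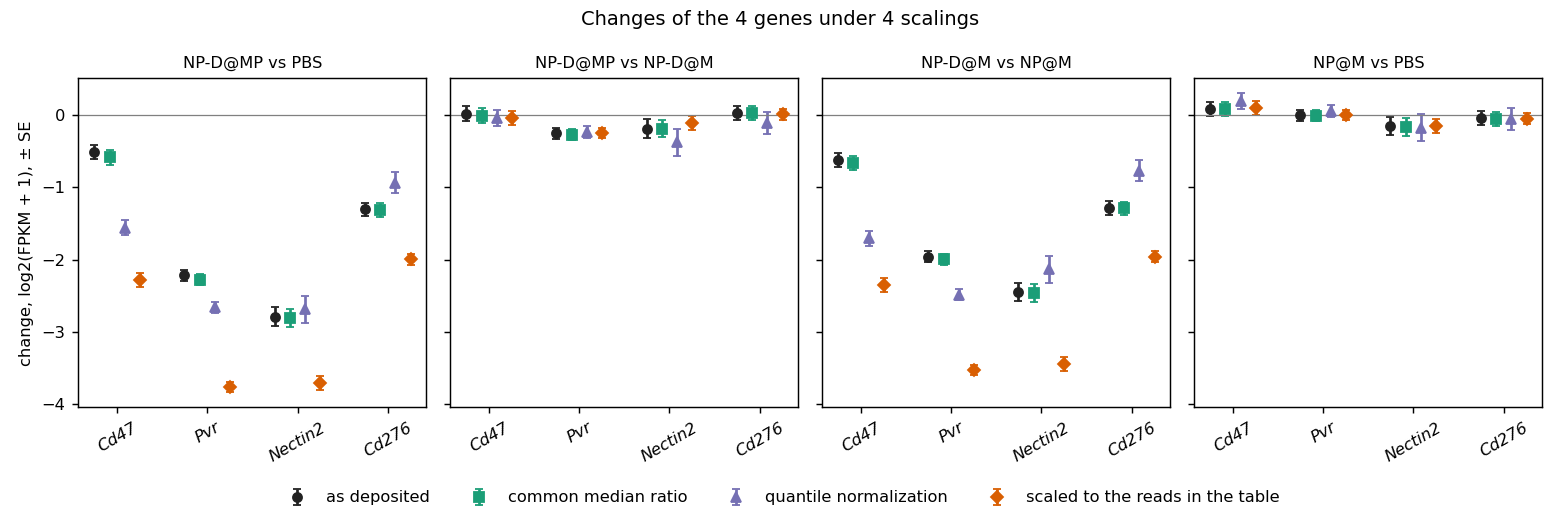
Log2 change of FPKM + 1 with its standard error for the 4 genes in NP-D@MP vs PBS, NP-D@MP vs NP-D@M, NP-D@M vs NP@M and NP@M vs PBS, with symbols for values as deposited and for 3 other scalings. In the comparisons of a group with D against one without D all symbols lie below 0, with those scaled to table reads the lowest, and in the other comparisons they stay near 0.

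The comparison of NP-D@MP with NP-D@M asks what MP in place of M adds when both carry D. None of the 4 genes was called (0.0495% of all tested genes were called in either direction). Pvr came nearest, at 3.11 ± 0.0962 FPKM with NP-D@MP and 3.90 ± 0.149 FPKM with NP-D@M (SD, n = 3 each). Its log2 change was -0.25 (95% limits -0.42 to -0.09, adjusted p = 0.205, limma), and its groups did not overlap, with NP-D@MP below NP-D@M, as was so for 4.6% of all tested genes. The reads, 422 in sum with NP-D@MP and 568 with NP-D@M, gave a level 1.25-fold lower by the authors' library sizes (95% counting interval 1.10 to 1.42). Over all alternative settings its adjusted p ran between 0.0760 and 0.599, and the lowest was reached without replicate 9 of NP-D@M. Leaving out that library raised the number of genes called in this comparison to 1259, against 5 with it.

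The log2 change of Cd47 between the same groups was 0.02 (95% limits -0.19 to 0.24, adjusted p = 0.929, limma), so that a larger difference than these lies outside its 95% limits. Nectin2 had a change of -0.19 (-0.47 to 0.09, adjusted p = 0.468, limma), which was -1.02 with a pseudocount of 0.1 FPKM and -1.97 to -1.98 with voom, in no case called, with 11 reads in sum for NP-D@MP and 24 for NP-D@M. Of the 11 reads, 10 came from replicate 12. Cd276 had a change of 0.03 (-0.18 to 0.24, adjusted p = 0.904, limma), with 6 reads in sum for NP-D@MP and 5 for NP-D@M. Differences between the coats in these low genes were not detectable at this depth.

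The coated particle without D was set against the vehicle. None of the 4 genes was called in NP@M vs PBS, where 0.0099% of all tested genes were called. The groups of all 4 genes overlapped, where those of 28.4% of all tested genes did not. The log2 change was 0.09 for Cd47 (95% limits -0.12 to 0.30, adjusted p = 0.742, limma) and -0.00 for Pvr (-0.17 to 0.17, adjusted p = 1, limma). It was -0.15 for Nectin2 (-0.43 to 0.13, adjusted p = 0.655, limma) and -0.05 for Cd276 (-0.26 to 0.16, adjusted p = 0.878, limma). The largest change within any of these limits, for Nectin2, is smaller than the change of each of the 4 genes in NP-D@M against NP@M.

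A ratio of 2 genes within a library does not depend on the library size, so it shows how the 4 genes changed relative to each other. The ratio was taken per length, on the log2 scale, for all 6 pairs, with a gene at 0 reads set to the floor of 3 reads. The log2 ratio of Cd47 to Pvr was 2.21 to 2.44 with NP-D@MP and 1.82 to 2.17 with NP-D@M, against 0.35 to 0.48 with NP@M and 0.22 to 0.38 with PBS. Over the 6 libraries with D, which pool both treatments, the mean was 2.15 ± 0.234, and over the 6 without D, which pool NP@M and PBS, it was 0.36 ± 0.0852 (SD). The difference of 1.79 gave p = 0.00216 in a two-sided exact permutation test, the smallest p that 6 against 6 libraries allow (0.00216 after Benjamini-Hochberg adjustment over the 6 pairs). Cd47 thus made up a larger part of the sum of the pair with D. The share of all gene pairs that separate in this way was not counted, for this pair or those below.

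Of the other 5 ratios, 4 were also higher with D. Cd47 to Nectin2 averaged 6.38 ± 1.31 with D and 1.85 ± 0.214 without D, and Cd47 to Cd276 averaged 7.19 ± 0.840 with D and 3.85 ± 0.116 without D. Pvr to Nectin2, the neighbours on chromosome 7, averaged 4.23 ± 1.18 with D and 1.49 ± 0.145 without D. Pvr to Cd276 averaged 5.04 ± 0.787 with D and 3.49 ± 0.0811 without D. Each of these pairs reached the same smallest p of 0.00216 in the exact permutation test, adjusted or not. Nectin2 and Cd276 passed the filter of 1 FPKM in 3 libraries only through NP@M and PBS, so these tests give no support of their own. Where Nectin2 or Cd276 had 0 reads, in 1 and 3 libraries with D, these ratios are lower bounds that already lie above all ratios without D. Nectin2 to Cd276 could not be judged. Both genes had 0 reads in replicate 11 and Cd276 had 0 in replicates 8 and 9, so the floor sets these ratios. The exact permutation test gave p = 0.00216 with that floor and p = 0.701 with 0.5 reads added instead. No conclusion is drawn from either. In the 3 libraries with D where both genes had reads, replicates 7, 10 and 12, the log2 ratio was 0.55, 0.07 and 1.07, against 1.83 to 2.03 with NP@M and 1.86 to 2.14 with PBS.

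**Figure D3:**
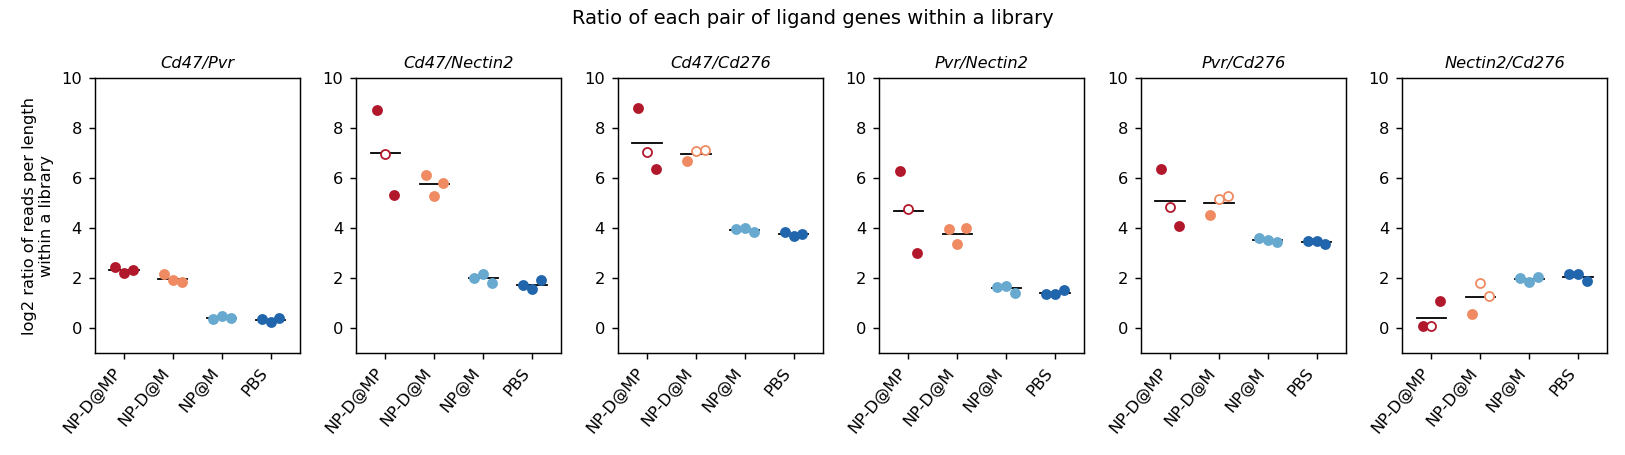
Log2 ratio of reads per length for each of the 6 pairs of genes, with a point per library and a line at the group mean, for NP-D@MP, NP-D@M, NP@M and PBS. For the first 5 pairs all points with D lie above all points without D. Open points have a gene at 0 reads, set to 3 reads, and for Nectin2 to Cd276 these points are set by that floor.

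The rank of a gene among the 12584 genes of its own library is also free of the library size. Cd47 ranked at the 77.3 to 78.5 percentile with NP-D@MP and 77.0 to 79.8 with NP-D@M, against 90.8 to 92.0 with NP@M and 89.7 to 91.1 with PBS. Pvr ranked at 56.4 to 57.3 with NP-D@MP and 60.4 to 61.3 with NP-D@M, against 87.5 to 88.5 with NP@M and 87.5 to 88.0 with PBS. Pvr was thus near Cd47 in rank without D and well apart from it with D. Nectin2 ranked at 4.39 to 24.8 with NP-D@MP and 19.0 to 26.4 with NP-D@M, against 65.2 to 68.3 with NP@M and 66.8 to 70.6 with PBS. Cd276 ranked at 4.39 to 17.5 with NP-D@MP and 4.13 to 20.7 with NP-D@M, against 32.5 to 34.3 with NP@M and 34.1 to 35.2 with PBS. The order of the 4 genes by mean rank was Cd47, Pvr, Nectin2, Cd276 in all 4 groups, and the ranks of Nectin2 and Cd276 overlapped with D.

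**Figure D4:**
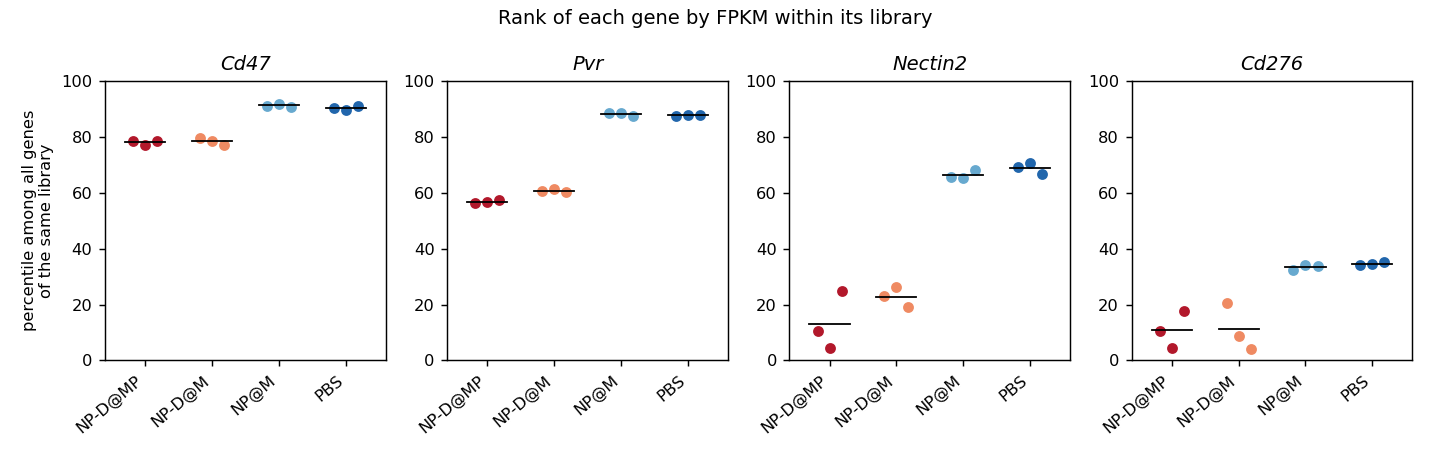
Percentile of each of the 4 genes by FPKM among the genes of the same library, from 0 to 100, with a point per library and a line at the group mean for NP-D@MP, NP-D@M, NP@M and PBS. The points with D lie below those without D for every gene, with Pvr at 56.4 to 61.3 against 87.5 to 88.5.

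Other genes of the same pathways were taken from 5 lists of 53 genes in all, of which 28 had a row and 22 were tested. In NP-D@M against NP@M, 13 of the 22 rose and 8 fell as deposited, and 6 were higher and 11 lower after scaling to table reads. In NP-D@MP against PBS the counts were 13 and 8 as deposited, and 5 higher and 12 lower after that scaling. Over all tested genes, 41.8% were called higher and 47.7% lower in NP-D@M against NP@M as deposited, and 17.5% higher and 70.5% lower after the scaling. In NP-D@MP against PBS these shares were 43.2% higher and 47.3% lower as deposited, and 17.5% higher and 70.8% lower after the scaling. The counts of each list below stand against the same shares. Quantile normalization left 10 of the 22 higher and 6 lower in both comparisons. None was called in NP-D@MP against NP-D@M or in NP@M vs PBS. The ligand genes stood with the falling part of these lists under both scalings.

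Of the CD47 axis, 5 of 7 genes were tested, and 4 rose and 1 fell in NP-D@M against NP@M. The receptor gene Sirpa is not analysed here. Thbs1, which encodes thrombospondin-1, another protein that binds CD47, was the gene that fell. It had 0.520 ± 0.299 FPKM with NP-D@MP against 8.32 ± 0.752 FPKM with PBS, and 0.348 ± 0.330 FPKM with NP-D@M against 8.91 ± 0.118 FPKM with NP@M (SD, n = 3 each). Its log2 change was -2.91 in NP-D@M against NP@M (adjusted p = 1.97e-08, limma). Thbs1 passed the filter of 1 FPKM in 3 libraries only through NP@M and PBS, so this call gives no support of its own. Calr, which encodes calreticulin, a chaperone that acts as an "eat me" signal at the cell surface, rose the most, to 1300 ± 53.9 FPKM with NP-D@M against 109.5 ± 2.90 FPKM with NP@M. Its log2 change was 3.56 as deposited (adjusted p = 3.88e-11, limma) and 1.73 scaled to table reads. Lrp1, the receptor for calreticulin on phagocytes, had a log2 change of 1.72 as deposited, -0.07 after that scaling and 0.06 after quantile normalization. Thbs2, a relative of Thbs1, had 1.72 as deposited, 0.04 after scaling to table reads and 1.40 after quantile normalization. Qpctl, the enzyme that modifies the N-terminus of CD47 for SIRP-alpha binding, had 3.44 ± 0.604 FPKM with NP-D@M against 0.765 ± 0.0303 FPKM with NP@M. Its log2 change was 1.32 as deposited, 0.20 after scaling to table reads and 1.77 after quantile normalization. The rises of Lrp1, Thbs2 and Qpctl were thus not called after scaling to table reads. Those of Thbs2 and Qpctl kept their call after quantile normalization, and that of Lrp1 did not. Qpctl passed the filter of 1 FPKM in 3 libraries only through the libraries with D, so its calls give no support of their own. In NP-D@MP against PBS, Lrp1 had 1.58 as deposited but was called lower under the other 2 scalings. It had -0.28 scaled to table reads (adjusted p = 0.0189, limma) and -0.29 after quantile normalization (adjusted p = 0.0186, limma).

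Of 13 nectin-related genes and partners 3 were tested, and 1 rose and 2 fell in NP-D@M against NP@M as deposited. Cadm1, an adhesion molecule of the nectin-like group, had 28.5 ± 1.20 FPKM with NP-D@M against 18.2 ± 1.49 FPKM with NP@M, a log2 change of 0.63 as deposited that turned to -1.13 scaled to table reads and to -0.52 after quantile normalization. Afdn, which encodes afadin, the anchor of nectins on the actin cytoskeleton, fell to 5.89 ± 0.250 FPKM with NP-D@M against 11.7 ± 1.05 FPKM with NP@M (log2 change -0.88, adjusted p = 1.12e-06, limma). Tigit, an inhibitory receptor for PVR known from T cells and natural killer cells, had a row in this tumour line, while none of the 7 markers of those cells did. Its level ran from 7.13 to 8.70 FPKM with NP-D@MP, 1.43 to 7.05 FPKM with NP-D@M, 8.04 to 11.5 FPKM with NP@M and 10.9 to 12.4 FPKM with PBS. Its log2 change was -1.19 in NP-D@M against NP@M (adjusted p = 0.00507, limma) and -0.54 in NP-D@MP against PBS (adjusted p = 0.140, limma). In NP-D@MP against PBS it was -2.23 scaled to table reads (adjusted p = 8.86e-06, limma) and -0.98 after quantile normalization (adjusted p = 0.00819, limma). The other receptors Cd226, Cd96 and Pvrig are not analysed here, and Nectin1, Nectin4 and Cadm4 had mean levels under 1 FPKM in every group.

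Of the B7 family 3 of 7 genes were tested, and 2 fell and 1 rose in NP-D@M against NP@M as deposited. Cd274, the gene of PD-L1, had 0.463 ± 0.222 FPKM with NP-D@MP against 1.03 ± 0.0397 FPKM with PBS, and 0 to 0.336 FPKM with NP-D@M against 0.746 to 1.43 FPKM with NP@M. The log2 change was -0.86 in NP-D@M against NP@M (adjusted p = 0.000300, limma) and -0.48 in NP-D@MP against PBS (adjusted p = 0.0130, limma), on 10 and 37 reads with D. No library with D reached 1 FPKM, so Cd274 passed the filter only through NP@M and PBS, and these calls give no support of their own. Neither call held after quantile normalization, where the change was -0.38 in NP-D@M against NP@M (adjusted p = 0.0547, limma) and 0.05 in NP-D@MP against PBS (adjusted p = 0.787, limma). The log2 changes of Cd276 were larger in size in both comparisons, a difference that was not tested. The pseudocount of 1 FPKM limits how far each gene can fall from its level without D. That level was 1.57 FPKM with NP@M and 1.65 FPKM with PBS for Cd276, against 1.02 and 1.03 FPKM for Cd274. The order of the 2 genes therefore gives no support of its own. Cd80, a costimulatory ligand, fell with a log2 change of -0.83. Vtcn1, which encodes the inhibitory ligand B7-H4, rose with 0.56 but had -0.50 scaled to table reads and 1.12 after quantile normalization. Cd80 and Vtcn1 were named after their values were seen.

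In the adenosine pathway, around the product of CD73, 6 of 15 genes were tested, and 4 rose and 1 fell in NP-D@M against NP@M as deposited. Ada, which breaks adenosine down to inosine, rose to 9.21 ± 1.13 FPKM with NP-D@M against 1.01 ± 0.405 FPKM with NP@M. Its log2 change was 2.36 as deposited and 1.05 scaled to table reads. Adk, the kinase that turns adenosine back into AMP inside the cell, had 30.4 ± 4.92 FPKM with NP-D@M against 4.74 ± 0.496 FPKM with NP@M (2.45 as deposited, 0.78 after that scaling). Slc29a1, an adenosine transporter, had 55.4 ± 2.38 FPKM with NP-D@M against 8.34 ± 0.889 FPKM with NP@M (2.60 and 0.86). These 3 genes, which remove or carry adenosine, were thus called higher under both scalings. Ada passed the filter of 1 FPKM in 3 libraries only through the libraries with D, so its calls give no support of their own. Entpd5, a nucleoside diphosphatase of the secretory pathway, had a log2 change of 1.21 as deposited, -0.15 after scaling to table reads and 1.62 after quantile normalization. Entpd6, its relative, fell with -0.86 (adjusted p = 0.00266, limma), which was -0.23 after quantile normalization (adjusted p = 0.380, limma). Entpd6 passed the filter of 1 FPKM in 3 libraries only through NP@M and PBS, so its call gives no support of its own. Slc29a2, a second adenosine transporter, had -0.27 (adjusted p = 0.341, limma) as deposited and -1.02 scaled to table reads (adjusted p = 0.000550, limma). In NP-D@MP against PBS it had -0.60 as deposited (adjusted p = 0.0492, limma) and -1.42 scaled to table reads (adjusted p = 3.43e-05, limma). After quantile normalization it was called in neither comparison, at 0.26 and -0.08. Slc29a2 also passed the filter only through NP@M and PBS, so its calls give no support of their own.

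Of 11 other inhibitory or costimulatory ligands 5 were tested, and 3 rose and 2 fell in NP-D@M against NP@M. Lgals9, which encodes galectin-9, a ligand of TIM-3, had 73.4 ± 2.41 FPKM with NP-D@M against 18.8 ± 1.81 FPKM with NP@M. Its log2 change was 1.91 as deposited, 0.13 scaled to table reads and 0.43 after quantile normalization. Lgals3, which encodes galectin-3, had 695.2 ± 127 FPKM with NP-D@M against 114.5 ± 2.74 FPKM with NP@M, with a log2 change of 2.58 as deposited, 0.75 after that scaling and -0.04 after quantile normalization. H2-T23, the Qa-1 molecule that engages NKG2A, had 6.19 ± 0.986 FPKM with NP-D@M against 0.954 ± 0.161 FPKM with NP@M (1.87 as deposited, 0.61 after scaling to table reads). The 2 that fell were Tnfrsf14, the ligand of BTLA, at -0.95, and Tnfsf9, the ligand of the costimulatory receptor 4-1BB, at -1.56, both named after their values were seen. Both passed the filter of 1 FPKM in 3 libraries only through NP@M and PBS, so their calls give no support of their own. After quantile normalization the change of Tnfrsf14 was -0.48 and its call was lost (adjusted p = 0.0731, limma).

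**Figure D5:**
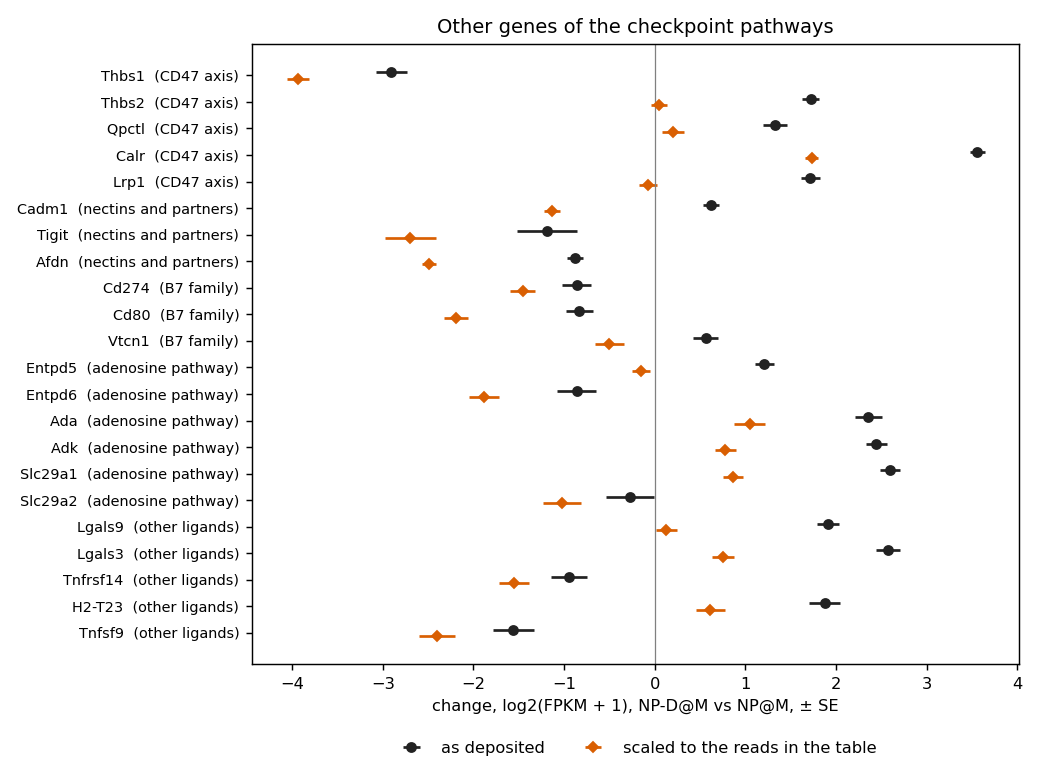
Log2 change of FPKM + 1 with its standard error in NP-D@M vs NP@M for the 22 tested genes of the pathway lists, as deposited and scaled to table reads. Every symbol scaled to table reads lies to the left of the one as deposited, and Calr, Ada, Adk, Slc29a1, Lgals3 and H2-T23 are called higher under both. Lrp1, Thbs2, Qpctl, Entpd5 and Lgals9 are called higher as deposited and come close to 0, uncalled, when scaled to table reads. Ada and Qpctl passed the filter of 1 FPKM in 3 libraries only through the libraries with D.

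Genes whose levels followed those of the 4 genes most closely were found by Pearson's r of log2(FPKM + 1) over the 12 libraries, among about 4578 tested genes with a mean of at least 5 FPKM. Since all libraries share the split between those with and without D, a high r was common and is given as a description. Closest to Cd47 were Prkci (r = 0.991), an atypical protein kinase C of cell polarity, Kif23 (0.987), a kinesin of cytokinesis, and Pja2 (0.986), a ubiquitin ligase, and 5.77% of the genes exceeded 0.95. Closest to Pvr were Steap1 (0.998), a metalloreductase family member, Slc2a1 (0.997), the glucose transporter GLUT1, and Sp1 (0.997), a transcription factor that binds GC boxes, and 15.9% exceeded 0.95. Closest to Nectin2 were Nup50 (0.998), a nuclear pore protein, B3gnt3 (0.997), a glycosyltransferase, and Cdk1 (0.996), the mitotic kinase. Closest to Cd276 were Hnrnpk (0.995), an RNA-binding protein, Sgk1 (0.995), a kinase, and Slc19a2 (0.995), a thiamine transporter. Among the 4 genes themselves r was 0.995 for Pvr with Nectin2, 0.991 for Nectin2 with Cd276 and 0.987 for Pvr with Cd276, and 0.944 to 0.966 for each of them with Cd47. Steap1 had 5.77 ± 0.760 FPKM with NP-D@MP and 6.77 ± 0.345 FPKM with NP-D@M, against 114.5 ± 4.92 FPKM with NP@M and 110.0 ± 1.12 FPKM with PBS (SD, n = 3 each). Prkci had 9.50 ± 0.866 FPKM with NP-D@MP and 8.83 ± 1.18 FPKM with NP-D@M, against 15.3 ± 0.850 FPKM with NP@M and 14.7 ± 0.566 FPKM with PBS.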

How the data were processed

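Total RNA of CT26 cells was sequenced in 12 libraries, 3 a group; per the labels' protocols, a TruSeq kit was used. The authors deposited FPKM per gene in 1 table. Bowtie 0.12.2 and mm8 are named per the submitters' processing notes, but 12571 of 12584 gene identifiers were found in GENCODE M21 of GRCm38, and all 4 genes had its coordinates. The counter and the strand setting are not given in the sources used here. FPKM times length was a whole multiple of a step per library for 100% of values (tolerance 1e-06), which gave reads and the authors' library size. The unit was not counts, so no count model was fitted to the FPKM.

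limma 3.58.1 (R 4.3.3) was run on log2(FPKM + 1) for genes with at least 1 FPKM in at least 3 libraries (10101), with all 12 libraries in 1 fit, and the call threshold was 0.05 after Benjamini-Hochberg adjustment. The steps were tested on simulated data. Ratios used exact permutation tests. The 5 genes and the lists were chosen with earlier results of these data known. The named genes are the 4 measured genes, Cd274, list genes averaging 5 FPKM or more in a group or having a receptor or enzyme role, and the 3 genes of highest r. Groups are those of the titles, where libraries run from 1 to 12 with no batch. Alternatives were other scalings, filters, pseudocounts and thresholds, voom on recovered reads, and leaving out each library.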

Additional observations from a re-analysis of the deposited data

How the results depend on the processing

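The calls of Cd47, Pvr, Nectin2 and Cd276 in NP-D@M against NP@M and in NP-D@MP against PBS kept their direction and their side of the threshold under all 22 or 23 alternatives run for each. Nectin2 and Cd276 passed the filter of 1 FPKM in 3 libraries only through NP@M and PBS. Most alternatives kept that filter, so the unchanged calls of these genes give no support of their own. The log2 changes ranged from -2.35 to -0.55 for Cd47, -3.52 to -1.94 for Pvr, -4.59 to -2.14 for Nectin2 and -5.59 to -0.77 for Cd276 in NP-D@M against NP@M, and the highest adjusted p was 0.00204 (limma). With a mean of at least 5 FPKM required, Nectin2 and Cd276 were not tested, 2 of the genes were called in each of these comparisons, and 4574 and 4584 genes were called in all. Uncalled changes near 0 turned sign. Cd276 in NP-D@MP against NP-D@M had -0.11 after quantile normalization and -0.047 to 0.10 with a library left out. Cd47 there had -0.0071 at a common median ratio, -0.041 after quantile normalization, -0.038 scaled to table reads, and -0.046 to 0.087 with a library left out. Pvr in NP@M against PBS had 0.057 after quantile normalization, 0.0073 scaled to table reads, 0.011 with voom and TMM factors, and -0.024 to 0.033 with a library left out. The genes called in NP-D@MP against NP-D@M, 5 as reported (1713 at an unadjusted p under 0.05), were 3 at an adjusted p under 0.01, 1 with a mean of at least 5 FPKM, 21 with no filter, 0 with only the 6 libraries compared, 26 with a pseudocount of 0.1, 2 scaled to table reads, 0 with voom under either library size, and 3 to 1259 with a library left out, the last without replicate 9 of NP-D@M. In NP@M against PBS, 1 as reported (1092 at an unadjusted p under 0.05), they were 0 with a mean of at least 5 FPKM, 4 with no filter, 2 with only the 6 libraries compared, 2 with a pseudocount of 0.1, 7 after quantile normalization, 0 with voom under either library size, and 1 to 2 with a library left out. The log2 ratio of Nectin2 to Cd276 differed by -0.32 with 0.5 reads added (adjusted p = 0.701, exact permutation test), against -1.19 with the floor of 3 reads. That floor sets the ratio. The other 5 pairs kept their direction under all 17 alternatives and their call wherever a test was run. Those with Nectin2 or Cd276 give no support of their own. No test was run for a single group with D against a single group without D. The causes were not tested. No paired analysis was possible because the groups share no replicate number. Depth limits what Nectin2 and Cd276 show with D, at 0 to 10 reads a library.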
